A study of Mus musculus with 4 samples.

Results

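The genes described here encode subunits of respiratory complexes I to IV, enzymes of the citrate cycle and the mitochondrial regulators Ppargc1a and Tfam. They were taken from a fixed list of 39 gene symbols, and every probe set annotated to exactly 1 of these symbols was used. This gave 80 of 34945 probe sets and 38 of 18193 genes; Cox7b, a subunit of complex IV, was not analysed here. Each gene was represented by its brightest probe set, and the other 42 probe sets of these genes are described separately.

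The data were 4 RNA samples of mouse liver tumor, each on its own Affymetrix array. Liver progenitor cells (LPCs), immature cells placed in the livers of recipient mice, gave rise to the tumors, which were driven by HrasV12, an activated RAS oncogene, and carried a tet-off short hairpin RNA against p53 (shp53). In 2 samples, called p53 off here, doxycycline was given for 0 days and the hairpin was made. In the other 2, called p53 on, mice had eaten doxycycline chow for 8 days, which stops the hairpin; the driver and the hairpin construct are common to both groups. No sample had doxycycline without the hairpin, so restored p53, doxycycline and time cannot be told apart. The labels do not say whether replicates are separate animals or tumors, so the spread behind each p-value is that between these arrays and could be technical alone.

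The citrate cycle oxidizes acetyl groups in the mitochondrial matrix and yields NADH and succinate. Complex I takes electrons from NADH and complex II from succinate; complex III passes them to cytochrome c and complex IV to oxygen, and the proton gradient built up on the way drives ATP synthase. Most subunits are encoded in the nucleus and imported, and a few are encoded by mitochondrial DNA. PGC-1 coactivators are known to raise the output of both genomes, and the factor TFAM that of mitochondrial DNA. Liver is a tissue with many mitochondria.

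Of the 38 genes, 4 fell and 0 rose in p53 on by limma with Benjamini-Hochberg adjustment over all genes at 0.05. That is 10.5% of these genes, against 28.7% of all genes tested; of all genes 14.7% were called lower and 14% higher. At an unadjusted p under 0.05 there were 2 higher and 6 lower among the 38. The share of all genes at that threshold was not counted, but it is at least the 28.7% called after adjustment. The same limit applies to each count at an unadjusted p given below. The 4 falls became 2 without p53 off replicate 1, 1 without p53 off replicate 2 and 1 without p53 on replicate 1, and 3 genes rose without p53 off replicate 1. Most changes were small: 27 of the 38 were smaller than 0.2 on the log2 scale in either direction, and none reached 2-fold. The median change of the 38 genes was close to 0, at -0.00069, and that of all genes was 0.023. The median of these genes was above 0 after quantile normalization (0.0933) or spike-in scaling (0.130) and below 0 after median centring (-0.0482), so no direction is given for the group as a whole. Spike-in scaling moved the median of all genes from 0.023 to 0.154 and the calls from 2550 higher and 2673 lower to 4421 higher and 1892 lower; among the 38 genes it gave 3 higher and 1 lower. Relative to that shift the group again lay close to all genes.

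The genes were bright: the median of their mean levels stood at the 93.6th percentile of all genes, and the range ran from 9.39 (Ppargc1a) to 99.3 (Cox5a). The p53 on and p53 off arrays did not overlap in 15 of the 38 genes, 6 with p53 on above and 9 with p53 on below, against 66.7% of all genes. A gene that is not called is not thereby shown to be equal in both groups, so intervals of the difference were used. The 95% interval of the change lay within 0.5 of 0 on the log2 scale for 28 of the 38 genes (73.7%), against 62.2% of all genes.

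**Figure D1:**
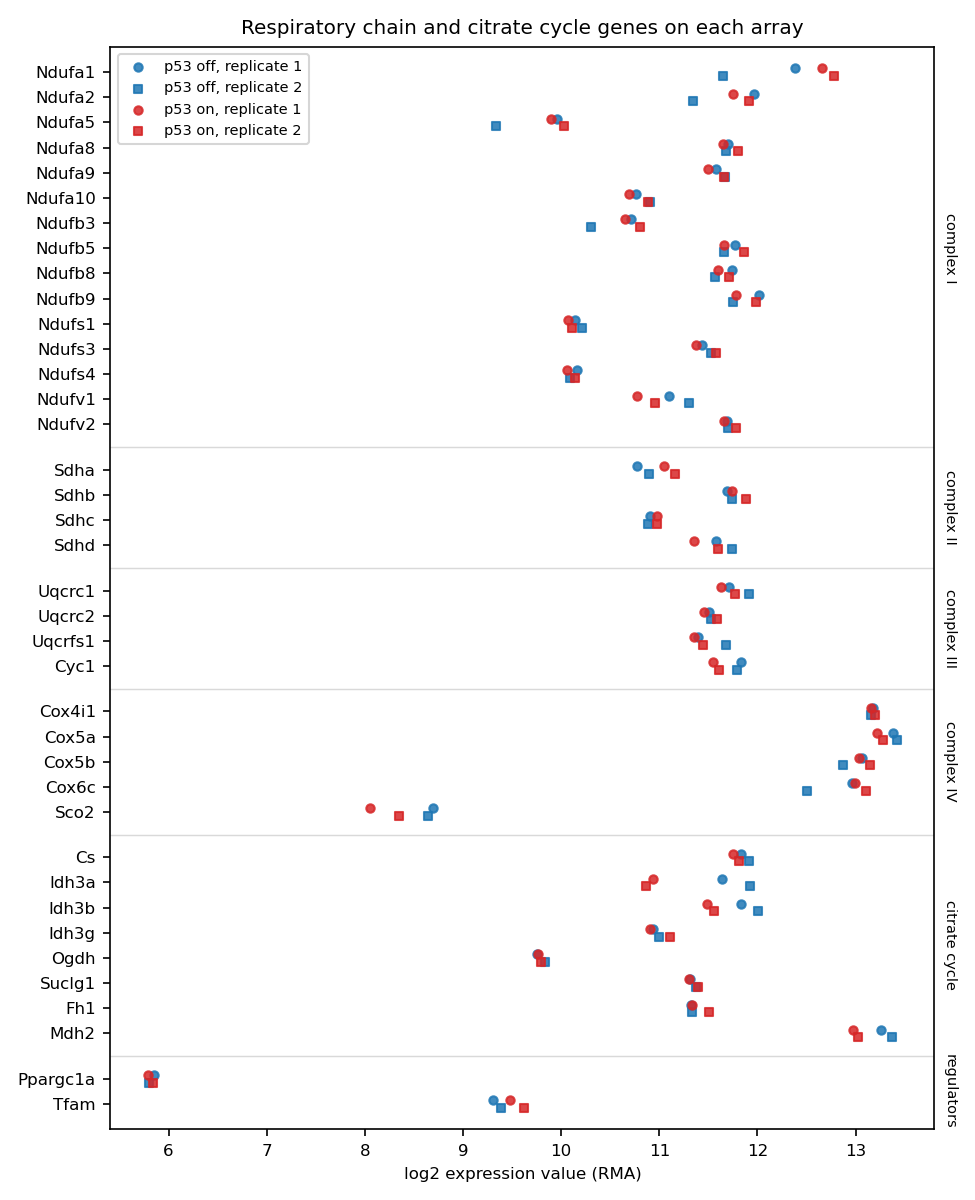
Log2 expression value (RMA) of each of the 38 genes on each of the 4 arrays, 1 probe set per gene, ordered by complex, citrate cycle and regulators. For most genes the 4 points lie close together; Idh3a and Sco2 show p53 on to the left of p53 off, and Ndufa1, Ndufa2, Ndufa5, Ndufb3 and Cox6c show p53 off replicate 2 to the left of the other arrays.

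Complex I, the NADH dehydrogenase, was measured by 15 genes, of which 0 were called (1 higher and 1 lower at an unadjusted p under 0.05), with a median change of 0.003. The interval lay within 0.5 of 0 for 10 of them. Ndufs1, which carries iron-sulfur clusters of the electron path, had 10.14 and 10.21 in p53 off against 10.07 and 10.11 in p53 on (log2 values). Its change was -0.09 ± 0.075 (SE, n = 2 against 2; limma adjusted p = 0.445), with an interval from -0.27 to 0.10. Ndufv2, a subunit of the NADH-oxidizing module, had 11.69 and 11.70 against 11.66 and 11.78. Its groups overlapped, and its change was 0.03 with an interval from -0.17 to 0.23. The same held for Ndufa8, Ndufa9, Ndufa10, Ndufb5, Ndufb8, Ndufb9, Ndufs3 and Ndufs4: their groups overlapped and their changes ran from -0.05 (Ndufa10) to 0.04 (Ndufb5).

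Ndufv1, which binds NADH and FMN at the entry of complex I, was the member of the complex with the lowest change. Its brightest probe set had 11.10 and 11.31 in p53 off against 10.78 and 10.96 in p53 on, with both p53 on arrays below both p53 off arrays. The change of -0.34 ± 0.11 was not called (limma adjusted p = 0.0724; range over alternatives 0.00888 to 0.333). Its other 2 probe sets fell by 0.93 and 0.54 in the fit of all probe sets (limma adjusted p = 0.00459 and 0.00845). With the mean of its 3 probe sets the change was -0.60 and was called (limma adjusted p = 0.00888). Among scalings and fits without 1 array, the brightest probe set was called with median centring (-0.38) and without p53 on replicate 2 (-0.43).

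The change of largest positive size belonged to Ndufa1, a small membrane subunit of complex I, which had 12.38 and 11.64 with p53 off and 12.65 and 12.78 with p53 on. Both p53 on arrays were above both p53 off arrays, but the p53 off arrays differed by 0.74. The change was 0.70 ± 0.24 (limma adjusted p = 0.0812; range over alternatives 0.0104 to 0.153). It was called with spike-in scaling, at 0.83, and without p53 off replicate 1, at 1.07; without p53 off replicate 2 the change was 0.33. Ndufa2, Ndufa5 and Ndufb3, also small subunits of complex I, had changes of 0.18, 0.31 and 0.22 with adjusted p between 0.316 and 0.586. Their upper limits reached 0.69, 0.83 and 0.59, so a rise of more than 0.5 lay inside each interval. Ndufa5 was called without p53 off replicate 1, at 0.62.

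Complex II, succinate dehydrogenase, belongs to both the citrate cycle and the respiratory chain, and 0 of its 4 genes were called (1 higher at an unadjusted p under 0.05; median change 0.090). Sdha, the flavoprotein that oxidizes succinate, had 10.77 and 10.90 in p53 off against 11.05 and 11.16 in p53 on. Its groups did not overlap, and its change was 0.27 ± 0.087 (limma adjusted p = 0.0720; range over alternatives 0.0208 to 0.287). It was called after quantile normalization (0.37) or spike-in scaling (0.40). A second probe set of Sdha rose by 0.44 (limma adjusted p = 0.00908 in the fit of all probe sets). Sdhb, the iron-sulfur subunit, and the membrane anchors Sdhc and Sdhd had differences of 0.10, 0.08 and -0.18, each with an interval inside 0.5.

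Complex III, the cytochrome bc1 complex, likewise had 0 of 4 genes called (1 lower at an unadjusted p under 0.05), with a median change of -0.12 that was 0.00723 with spike-in scaling. Cyc1, which encodes its cytochrome c1, had 11.83 and 11.79 in p53 off against 11.55 and 11.61 in p53 on. These groups did not overlap, and the change was -0.23 ± 0.074 (limma adjusted p = 0.0712; range over alternatives 0.0368 to 0.395), called with median centring alone among the alternatives. The core proteins Uqcrc1 and Uqcrc2 and the Rieske iron-sulfur protein Uqcrfs1 had differences of -0.11, 0.01 and -0.14, and their groups overlapped. All 4 intervals lay within 0.5 of 0.

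Complex IV, cytochrome c oxidase, held 1 of the 4 genes that fell. Sco2, which helps to insert copper into complex IV and is known from other work as a gene activated by p53, had 8.69 and 8.64 with p53 off and 8.05 and 8.35 with p53 on. Both p53 on arrays were lower, and replicate 1 was the lower of them. The change was -0.46 ± 0.12 (1.38-fold lower; limma adjusted p = 0.0335; range over alternatives 0.00622 to 0.141). Among scalings and fits without 1 array, the call ended with spike-in scaling (-0.33) and without either p53 off array (-0.44 and -0.49) or p53 on replicate 1 (-0.32). Sco2 had 1 probe set, of a type marked as able to detect more than 1 transcript.

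The structural subunits of complex IV were among the brightest genes, and 0 of the 4 measured were called (0 at an unadjusted p under 0.05). Cox4i1, its regulatory subunit, had 13.18 and 13.15 in p53 off against 13.16 and 13.19 in p53 on, a change of 0.01 with an interval from -0.17 to 0.19. Cox5a had 13.38 and 13.42 against 13.22 and 13.28, with no overlap, and a change of -0.15 ± 0.074 (limma adjusted p = 0.182). Cox6c had 12.97 and 12.50 against 12.99 and 13.10, and its change of 0.32 ± 0.16 (limma adjusted p = 0.210) was 0.08 without the low p53 off replicate 2. Without p53 off replicate 1 it was 0.55 and was called. The difference of Cox5b was 0.13, and its groups overlapped.

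Over complexes I to IV together, 1 of 28 genes was called (3.57%, against 28.7% of all genes). The interval lay within 0.5 of 0 for 21 of 28 genes (75%). Their median distance from the change to either end was 0.247, against 0.217 for all genes, so the low count of calls came with intervals slightly wider than those of other genes.

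**Figure D2:**
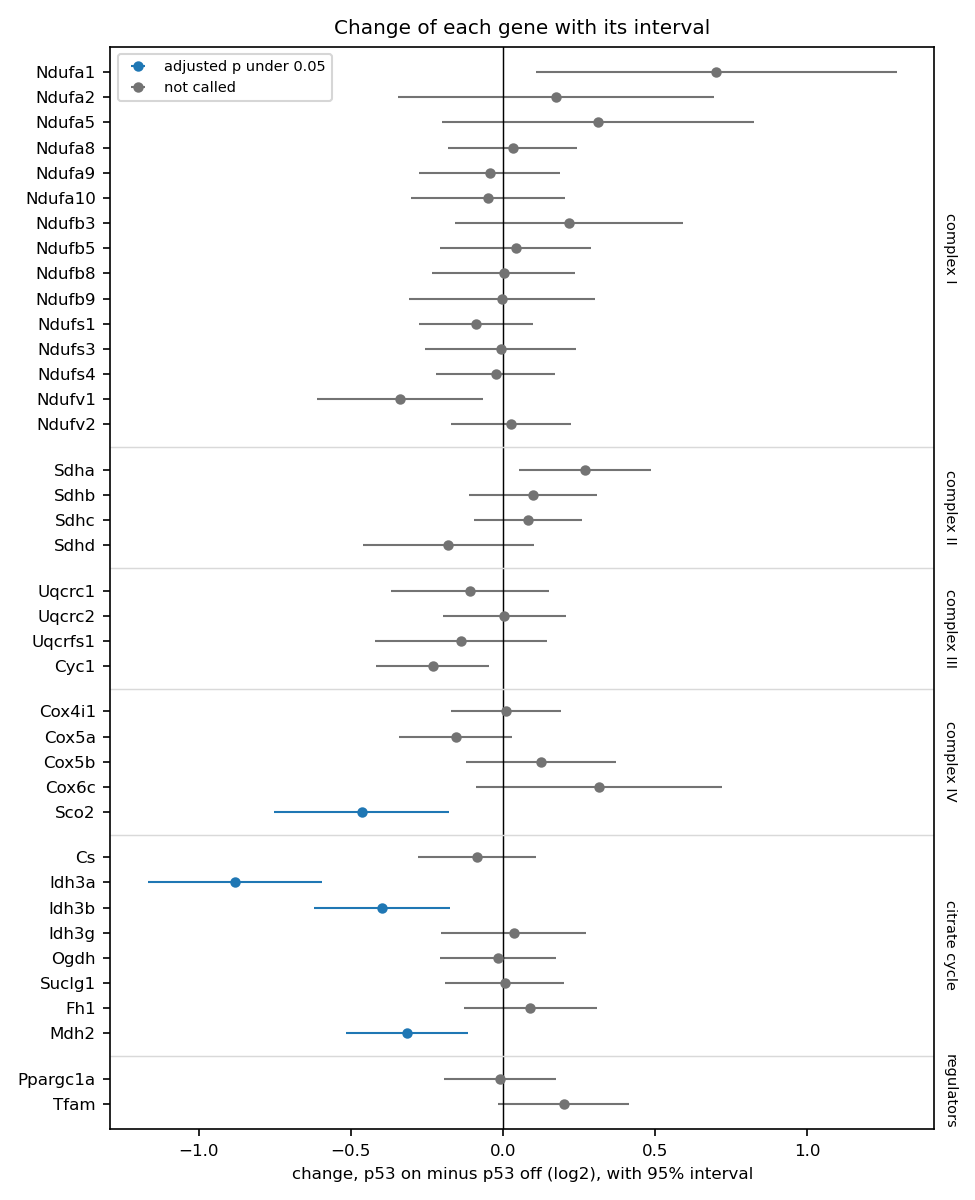
Change of each gene (p53 on minus p53 off, log2) with its 95% interval from limma, n = 2 against 2 arrays; blue marks an adjusted p under 0.05. The 4 blue points, Sco2, Idh3a, Idh3b and Mdh2, lie below 0, and they were below 0 under every scaling tried, although only Idh3a stayed called with spike-in scaling; the widest interval is that of Ndufa1.

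In the citrate cycle 3 of 8 genes fell (37.5%, against 14.7% of all genes called lower) and 0 rose, with a median change of -0.05 that was 0.0803 with spike-in scaling. The count was 1 with spike-in scaling, without p53 off replicate 2 and without p53 on replicate 1, and 2 without either of the other arrays. All 3 encode NAD-linked dehydrogenases: Idh3a and Idh3b, the catalytic and a regulatory subunit of isocitrate dehydrogenase 3, and Mdh2, the matrix malate dehydrogenase. Idh3g, the other regulatory subunit of the same enzyme, was not called. Fewer cells of a kind and less RNA per cell cannot be told apart in these tumor samples.

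Idh3a had 11.64 and 11.92 in p53 off against 10.94 and 10.86 in p53 on. Both p53 on arrays were below both p53 off arrays, with a gap wider than the spread inside either group. The change was -0.88 ± 0.11 (1.84-fold lower; limma adjusted p = 0.00439; range over alternatives 0.00215 to 0.257). It was called in each fit without 1 array, with changes from -1.02 to -0.74. The other 3 probe sets of Idh3a did not follow the brightest one: their differences were 0.27, 0.17 and 0.00, and none was called (limma adjusted p = 0.110, 0.183 and 0.983). Averaging all 4 probe sets gave Idh3a a change of -0.11 and its call was lost (limma adjusted p = 0.257).

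Idh3b had 11.83 and 12.00 with p53 off and 11.49 and 11.55 with p53 on. The groups did not overlap, and the change was -0.40 ± 0.090 (1.32-fold lower; limma adjusted p = 0.0250; range over alternatives 0.0128 to 0.152). A second probe set fell by 0.46 (limma adjusted p = 0.0134 in the fit of all probe sets), and the third, a dim one, had a difference of -0.21. Among scalings and fits without 1 array, the call ended with spike-in scaling (-0.27) and without p53 off replicate 2 (-0.31) or p53 on replicate 1 (-0.36).

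Mdh2 had 13.25 and 13.37 in p53 off against 12.97 and 13.02 in p53 on. Both p53 on arrays were below both p53 off arrays. The change was -0.31 ± 0.080 (1.24-fold lower; limma adjusted p = 0.0365; range over alternatives 0.0195 to 0.216). Its second probe set fell by 0.40 (limma adjusted p = 0.0217). Among scalings and fits without 1 array, the call ended with spike-in scaling (-0.18) and in each fit without 1 array, with changes from -0.37 to -0.26.

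Idh3g had 10.94 and 11.00 in p53 off against 10.90 and 11.11 in p53 on, and the groups overlapped. Its change was 0.04 ± 0.095 (limma adjusted p = 0.820), with an interval from -0.20 to 0.27. The second probe set of Idh3g, with a mean level of 10.84 against 10.99 for the brightest, had a difference of -0.17. It was not called (limma adjusted p = 0.344 in the fit of all probe sets), and its interval ran from -0.47 to 0.12. By the brightest probe set of each gene alone, the intervals of Idh3a (-1.17 to -0.59) and Idh3g did not meet, and those of Idh3b (-0.62 to -0.17) and Idh3g did. A difference between genes was not tested.

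The promoters of Idh3b, Mdh2 and Sco2, which fell, and of Idh3g, which was not called, are shown with the motifs of factors known for mitochondrial genes. Each stretch runs from 250 bases before the start of the gene to 25 after it, 5′ to 3′ on the strand of the gene, from RefSeq on GRCm38.p6. Capitals mark an ETS motif (CCGGAAG, bound by GABP) or an SP1 GC box (GGGCGG) on either strand. Idh3b lies on the minus strand at chr2:130284427-130284701, Idh3g on the minus strand at chrX:73786873-73787147, Mdh2 on the plus strand at chr5:135778399-135778673 and Sco2 on the minus strand at chr15:89373867-89374141.
Idh3b: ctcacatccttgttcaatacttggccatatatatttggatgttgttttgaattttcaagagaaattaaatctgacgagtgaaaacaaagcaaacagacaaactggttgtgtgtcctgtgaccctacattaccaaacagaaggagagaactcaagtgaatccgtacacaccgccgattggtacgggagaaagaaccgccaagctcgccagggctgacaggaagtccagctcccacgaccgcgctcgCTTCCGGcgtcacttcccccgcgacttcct
Idh3g: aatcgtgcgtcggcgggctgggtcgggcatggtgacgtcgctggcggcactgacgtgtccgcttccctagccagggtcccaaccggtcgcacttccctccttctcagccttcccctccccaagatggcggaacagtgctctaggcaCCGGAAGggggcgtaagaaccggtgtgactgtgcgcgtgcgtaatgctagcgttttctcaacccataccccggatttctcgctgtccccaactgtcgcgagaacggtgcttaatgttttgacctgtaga
Mdh2: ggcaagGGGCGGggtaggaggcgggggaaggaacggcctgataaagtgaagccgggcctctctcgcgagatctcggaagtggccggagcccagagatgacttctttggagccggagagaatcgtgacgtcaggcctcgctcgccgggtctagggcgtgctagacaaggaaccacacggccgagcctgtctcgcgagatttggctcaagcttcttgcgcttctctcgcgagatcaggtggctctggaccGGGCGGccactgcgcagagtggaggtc
Sco2: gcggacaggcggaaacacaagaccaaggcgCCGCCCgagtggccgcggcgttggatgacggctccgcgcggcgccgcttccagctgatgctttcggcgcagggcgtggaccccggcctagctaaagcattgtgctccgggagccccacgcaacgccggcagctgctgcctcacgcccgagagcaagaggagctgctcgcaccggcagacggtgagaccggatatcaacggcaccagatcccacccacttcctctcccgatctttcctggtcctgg
In Idh3b the ETS letters began 5 bases before the start, and in Idh3g they began 104 bases before it. Mdh2 held GC boxes that began 244 and 2 bases before its start, and Sco2 held 1 that began 220 bases before it. Of the subunits of IDH3, both Idh3b, which fell, and Idh3g, which was not called, held an ETS match. Idh3a had no promoter entry, so its promoter was not searched.

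RefSeq promoters were found for 29 of the 38 genes and were searched on both strands over 300 bases, from 250 before the start to 50 after it. A gene counted if any of its promoter entries held the letters, and the shares are set against those of all 27025 genes with a promoter entry. The ETS letters were in 6 of the 29 (20.7%) against 9.93%. The core of NRF1, a known activator of respiratory genes (CGCATGCG), was in 3 (10.3%) against 2.07%. The YY1 letters AAGATGGC were in 4 (13.8%) against 3.19%, and the GC box was in 16 (55.2%) against 38.2%. The ERR letters AAGGTCA, bound by estrogen-related receptors, were in 2 (6.9%) against 5.38%, and the E-box CACGTG in 3 (10.3%) against 8.09%. CCAAT was in 7 (24.1%) against 41.1%, and a single unit of the p53 response element in 1 (3.45%) against 9.55%. A GC box can overlap other GC-rich letters, and these matches describe the letters alone.

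Cs, the citrate synthase that opens the cycle, had 11.83 and 11.91 with p53 off and 11.76 and 11.82 with p53 on, a change of -0.08 ± 0.077 (limma adjusted p = 0.474). Its other probe sets had differences of -0.28 (limma adjusted p = 0.0607) and -0.56 (limma adjusted p = 0.0136), and with the mean of all 3 the change was -0.31 and was called. Ogdh, of the 2-oxoglutarate dehydrogenase complex, Suclg1, of succinyl-CoA ligase, and Fh1, the fumarase, had differences of -0.02, 0.01 and 0.09. Their groups overlapped and their intervals lay within 0.5 of 0.

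Of the regulators, 0 of 2 were called (0 at an unadjusted p under 0.05). Tfam, which packages mitochondrial DNA and helps to transcribe it, had 9.31 and 9.39 in p53 off against 9.48 and 9.62 in p53 on. Tfam thus had a change of 0.20 ± 0.086 (limma adjusted p = 0.149). It was called with spike-in scaling (0.33) and with the mean of its 2 probe sets (0.29), and its dim probe set rose by 0.37 (limma adjusted p = 0.0210). Ppargc1a, which encodes the coactivator PGC-1 alpha, had 5.85 and 5.80 against 5.79 and 5.84, near the bottom of the array scale. All 5 of its probe sets were dim, and such values can hide a change.

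Across all 80 probe sets, 3 rose and 9 fell by limma with adjustment over all probe sets. That is 15%, against 25.9% of all probe sets, of which 12.3% were higher and 13.6% lower. Of the 23 genes with more than 1 probe set, 16 had changes of 1 sign and 7 of both signs, and 0 had probe sets called in opposite directions. Ndufv1 and Cs had probe sets that fell while their brightest was not called. Sdha, Tfam and Ndufs4, a subunit of complex I, had a weaker probe set that rose (0.44, 0.37 and 0.42) while the brightest was not called.

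**Figure D3:**
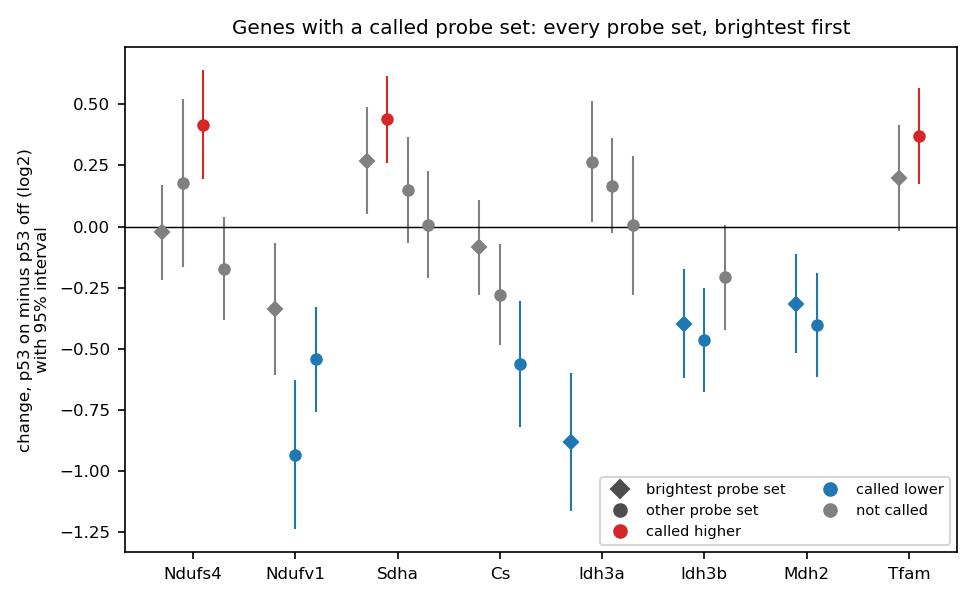
Change (p53 on minus p53 off, log2) with its 95% interval for every probe set of the 8 genes with more than 1 probe set and at least 1 call, brightest probe set first, from the fit of all probe sets. The probe sets of Ndufv1, Idh3b and Mdh2 lie below 0 together, whereas those of Idh3a and Ndufs4 lie on both sides.

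Replicates differed among themselves in a way that touched many of these genes. In p53 on, replicate 1 was below replicate 2 in 36 of 38 genes, with a median difference of -0.119, against -0.0366 over all genes. In p53 off, replicates differed by more than 0.3 in 5 genes, Ndufa1, Ndufa2, Ndufa5, Ndufb3 and Cox6c, and replicate 2 was the lower one in each. In p53 on 0 genes differed by that much. The SD of the replicate difference over these genes was 0.245 in p53 off and 0.0724 in p53 on, whereas over all genes it was 0.16 and 0.231.

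Skeletal muscle is rich in respiratory chain RNA, and p53 on replicate 1 had high values of its markers. Acta1, the muscle actin, had 9.43 and 10.86 in p53 off against 12.62 and 9.90 in p53 on, and Ckm, the muscle creatine kinase, had 7.55 and 8.07 against 10.80 and 7.54. The summed level of the 5 muscle markers was 10.31 and 11.71 with p53 off and 13.90 and 11.06 with p53 on. Of the 5, 0 were called (0 at an unadjusted p under 0.05) and the groups of each overlapped. Cox6a2, the muscle form of a complex IV subunit, had 7.40 and 7.26 against 8.28 and 7.42. The array with these high values was the lower p53 on replicate for 36 of the 38 genes. Without that array the median change of the 38 genes was 0.05, and the change of Idh3a was -0.92. The part of muscle RNA in the values of these genes was not tested.

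**Figure D4:**
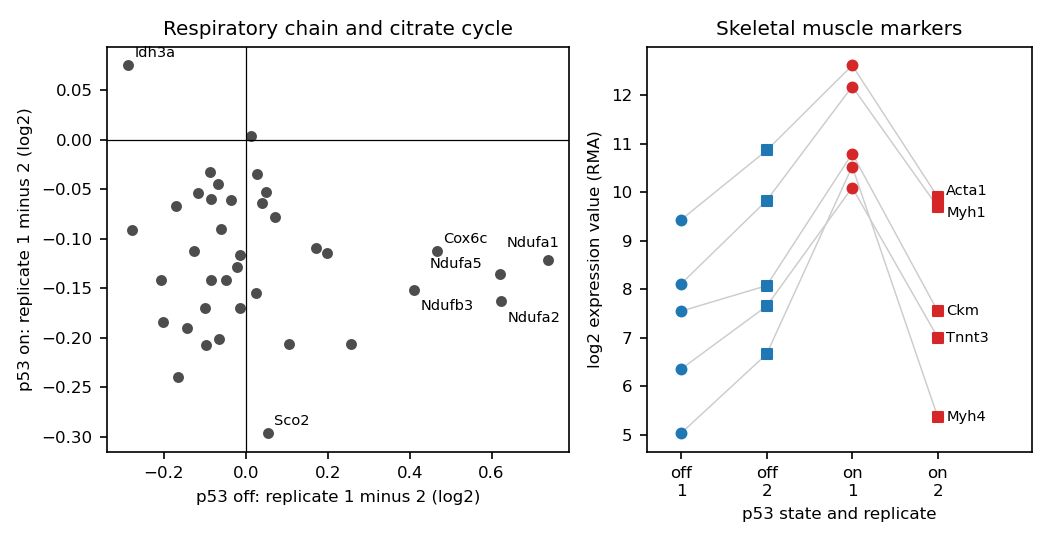
Left: for each of the 38 genes, replicate 1 minus replicate 2 (log2) in p53 off on the horizontal axis and in p53 on on the vertical axis; 36 points lie below the horizontal line, and 5 genes lie beyond 0.3 on the right. Right: log2 expression value (RMA) of 5 skeletal muscle markers on each array, blue for p53 off and red for p53 on, with lines joining the points of 1 gene; p53 on replicate 1 is the highest array for each.

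Markers of several cell types also differed between the groups, and whether the makeup of the samples changed was not tested. Of all genes 14.7% were called lower and 14% higher. The 7 hepatocyte markers had mean levels from 6.63 to 8.83 (median 7.64), against a median of 8.27 over all genes, and Alb had values between 6.96 and 7.39. Of these markers 0 were called (0 at an unadjusted p under 0.05), with changes from -0.11 to 1.29. Their summed level was 10.55 and 10.56 in p53 off against 11.13 and 10.54 in p53 on. Of 7 epithelial and progenitor markers 5 fell and 1 rose, with a summed level of 15.25 and 15.46 in p53 off against 14.09 and 14.03 in p53 on. All 7 fibroblast markers rose (15.57 and 15.39 against 16.35 and 16.36), as did all 6 endothelial markers (11.83 and 11.86 against 12.63 and 12.85) and 5 of 8 macrophage markers (14.04 and 14.20 against 15.07 and 14.83). Without either p53 off array 2 of 6 endothelial markers were called, and without p53 off replicate 2 there were 4 of 7 fibroblast markers. Of 5 lymphocyte and 5 neutrophil markers 1 each rose, and of 2 brown fat markers 0 were called (0 at an unadjusted p under 0.05). RNA quality was read from the beta-actin and Gapdh controls. The 3' minus 5' difference of beta-actin was 0.395 and 0.262 in p53 off against 0.478 and 0.492 in p53 on. That of Gapdh was -0.108 and -0.143 in p53 off against -0.0556 and -0.0208 in p53 on. The part of these markers and of RNA quality in the 4 falls was not tested. Arrays correlated across genes with r = 0.9969 within p53 off, 0.9931 within p53 on and 0.9652 to 0.9716 between groups; genes are not independent replicates.

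The remaining parts of the pathway were described by fixed lists that exclude the 38 genes. Over all of these lists, 8 of 167 measured genes rose and 29 fell (22.2% called, against 28.7% of all genes), with a median change of -0.097. The balance turned with spike-in scaling, to 25 higher and 17 lower, and with median centring it was 8 higher and 48 lower. Without p53 off replicate 1 there were 12 higher and 18 lower, and without p53 off replicate 2 there were 2 higher and 11 lower. Lists of structural subunits held fewer calls than lists of mitochondrial import and translation; differences between lists were not tested.

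Structural subunits of the chain and of ATP synthase held few calls, where 28.7% of all genes were called. Of 18 other complex I subunits 1 rose and 0 fell (median 0.13): Ndufv3, at 0.40 ± 0.11 (limma adjusted p = 0.0438), a call that ended without replicate 2 of p53 off (0.28) or of p53 on (0.34). Of 16 other complex III and IV genes 0 were called (3 higher and 2 lower at an unadjusted p under 0.05; median 0.22); the smallest p belonged to Uqcrh, a hinge protein of complex III, with a change of 0.47 (limma adjusted p = 0.0512), called with quantile normalization, median centring and spike-in scaling. Of 16 ATP synthase genes 0 were called (2 lower at an unadjusted p under 0.05; median 0.003), and Atp5b, its catalytic beta subunit, had a difference of -0.26 (limma adjusted p = 0.109). For these lists, without p53 off replicate 1 the counts called higher were 3, 3 and 3. Of 13 genes encoded by mitochondrial DNA only ND5, a complex I subunit, was measured. ND5 had 13.65 and 13.61 in p53 off against 13.78 and 13.43 in p53 on, a change of -0.02 with an interval from -0.34 to 0.29.

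Around the citrate cycle, Pdk1, the kinase that inactivates pyruvate dehydrogenase, had 10.17 and 10.40 with p53 off and 8.83 and 9.12 with p53 on. It fell by 1.32 ± 0.13 (2.49-fold lower, limma adjusted p = 0.00206), which by the brightest probe set was more than any of the 38 genes. Over the alternatives the change of Pdk1 ran from -1.46 to -0.55. Mpc1, a subunit of the mitochondrial pyruvate carrier, rose by 0.73 and Pcx, the pyruvate carboxylase, by 0.49. In all, 2 of 12 genes of pyruvate entry rose and 2 fell (33.3% called, against 28.7% of all genes). Of 8 other citrate cycle enzymes, a list that also named cytosolic forms, 1 rose and 1 fell (25% called). Their median change was -0.224, and 7 of the 8 changes were below 0 (1 higher and 4 lower at an unadjusted p under 0.05). Idh2, the NADP-linked isocitrate dehydrogenase of the matrix, fell by 0.75 ± 0.11 (limma adjusted p = 0.00637). Over the alternatives the change of Idh2 ran from -0.88 to -0.42. Suclg2, a beta subunit of succinyl-CoA ligase, rose by 0.50. Without p53 off replicate 2 the calls of Pcx (0.38) and Suclg2 (0.47) ended, as did that of Suclg2 without p53 off replicate 1 (0.53) and that of Pcx without p53 on replicate 2 (0.42).

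Among 29 assembly factors of the respiratory chain 1 rose and 6 fell (24.1% called, against 28.7% of all genes), with a median change of -0.157. Without either p53 off array 2 fell, and without p53 on replicate 2 there were 9. Acad9, a complex I assembly factor, fell by 0.61, Uqcc2, which acts on complex III, by 0.45, and Lrpprc, which stabilizes mitochondrial RNA, by 0.43. With spike-in scaling the counts in this list were 4 higher and 2 lower, and with the mean of its probe sets Acad9 stood at -0.07 and was not called. The call of Uqcc2 ended with quantile normalization (-0.35), with spike-in scaling (-0.32), and without replicate 1 of p53 off (-0.32) or of p53 on (-0.41). Without p53 off replicate 2 Acad9 (-0.54) and Lrpprc (-0.33) were not called. Among 20 other regulators 2 rose and 2 fell (20% called). With spike-in scaling there were 6 higher and 1 lower, and with median centring 1 higher and 5 lower. Ppargc1b, a coactivator related to Ppargc1a, rose by 0.73 ± 0.072, from 8.00 and 8.01 to 8.71 and 8.76 (limma adjusted p = 0.00198). Pprc1, the third member of that coactivator family, fell by 0.80 ± 0.078, from 9.68 and 9.78 to 8.95 and 8.90 (limma adjusted p = 0.00192). Twnk, the helicase of mitochondrial DNA, fell by 0.39, a call that ended without either p53 off array (-0.44 and -0.34) and with spike-in scaling (-0.26).

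The mitochondrial ribosome and the import and chaperone list held most of the falls. Of 26 mitochondrial ribosomal protein genes 1 rose and 8 fell (median -0.324), led by Mrps5 (-0.89), Mrpl19 (-0.82) and Mrps10 (-0.79). Of 21 genes for import, chaperones and carriers 0 rose and 10 fell (47.6%, against 14.7% of all genes called lower, median -0.271). Hspd1, the matrix chaperonin HSP60, had 12.77 and 12.89 in p53 off against 11.97 and 11.85 in p53 on and fell by 0.92 ± 0.088 (limma adjusted p = 0.00180). Tomm70a, an import receptor, fell by 0.91 (-0.96 to -0.48 over the alternatives) and Tomm40, the import pore, by 0.89 (-1.04 to -0.74). With spike-in scaling 6 ribosomal and 6 import genes were called lower and 1 and 2 higher. Without p53 off replicate 2 the counts called lower were 2 and 4, Mrpl19 (-0.70) and Mrps10 (-0.63) were not called. Without p53 on replicate 2 the ribosomal and import genes called lower were 16 and 9.

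**Figure D5:**
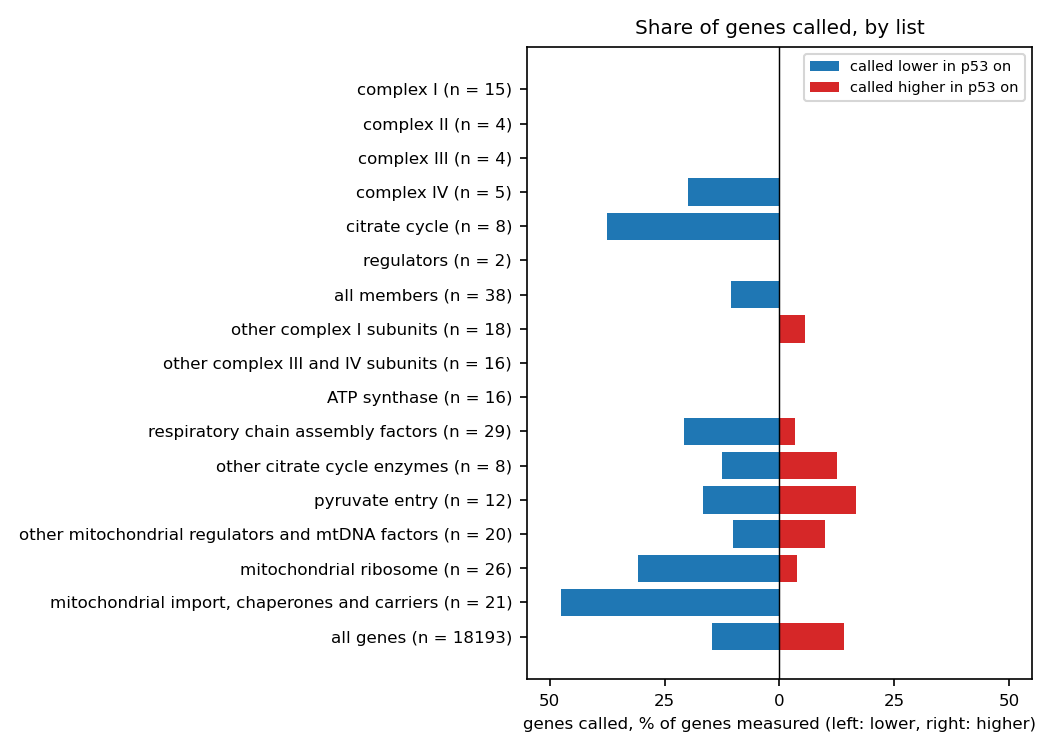
Percent of the measured genes of each list called lower (left, blue) or higher (right, red) in p53 on, limma adjusted p under 0.05, with the number of genes measured in brackets. Complexes I to III, the regulators, other complex III and IV subunits and ATP synthase have no bar. The list of import, chaperones and carriers has the longest bar to the left at 47.6%. With spike-in scaling that list had 6 of 21 genes called lower and 2 higher.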

How the data were processed

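RNA of 4 tumor samples had been labelled with biotin and hybridized to Affymetrix arrays, per the labels' protocols. The deposited table holds log2 values that the authors made with RMA (background correction, quantile normalization, summarisation); RMA and limma 3.14.4 are named by the submitters' processing notes, per the labels. The genome build is not given in the sources used here. The method makes no call of presence, so a dim gene can change more than its values show.

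Of 45101 probe sets, 34945 had exactly 1 gene symbol, 932 several and 9160 none, and 64 were controls. Gene IDs of 34741 matched RefSeq (GRCm38.p6), and 0 symbols needed an update. The brightest probe set by mean represented a gene, with no filter on dim genes. Each gene was fitted with limma 3.58.1 (R 4.3.3) as p53 on minus p53 off, with 2 residual and 5.47 moderated degrees of freedom, and adjusted by Benjamini-Hochberg over 18193 genes; a second fit used every probe set. The fit was tested on simulated data. Figures used Python 3.11.15 and matplotlib 3.10.9. Exact permutation tests cannot reach 0.05 with 2 against 2 arrays and were not used.

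Pathway genes were named as up to 3 called genes per list with the largest change, or the gene with the smallest p; muscle markers, Cox6a2 and Alb were named after their values were seen. The 38 genes and all lists were chosen with earlier results of these data known. The targeted gene and the driver were not analysed here, so p53 states rest on the labels. Alternatives were a replicate block, quantile normalization, median centring, spike-in scaling, leaving out the lowest 40% of genes, other probe set choices, array weights, trend and robust eBayes, a minimum change of 1 on the log2 scale, and leaving out each array, where the lone array left is taken to vary as the other pair did. The crossed block was added after seeing the data.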

Additional observations from a re-analysis of the deposited data

How the results depend on the processing

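The number of arrays, 2 per group, limits the precision of every value, and the members with the lowest signal (all probe sets of Ppargc1a) carry little information. All genes called were 5223, and 960 with a size threshold of 1; leaving out 1 array gave 2228 to 5055, fewest without a p53 off array. Of the 38 genes, 0 were called higher, but 1 with quantile normalization, 3 with spike-in scaling and 1 with probe sets averaged. The 4 called lower became 1 with spike-in scaling and 0 with the size threshold. In the fit of every probe set, 3 of the 80 probe sets of these genes were called higher and 9 lower. These are counts of probe sets, and some genes had more than 1 of them called. In complex I (0 called) 1 gene was called with the replicate block, median centring, spike-in scaling or the mean of probe sets, and 0 to 2 without 1 array. In complex II (0) 1 was called with quantile normalization or spike-in scaling, and in complex III (0) 1 with median centring. In complex IV (1) 0 were called with the replicate block, spike-in scaling, probe sets without a mark of cross-hybridization, the size threshold or the crossed block. Without 1 array the change of Sco2 ran from -0.61 to -0.32 and that of Cox6c from 0.08 to 0.55. In the citrate cycle (3) 1 was called with spike-in scaling or the crossed block, 0 with the size threshold, and 1 to 2 without 1 array. Of the regulators (0) 1 was called with spike-in scaling or the mean of probe sets.

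Medians moved with scaling. With quantile normalization they were 0.0933 for the 38 genes, 0.0983 for complex I, 0.187 for complex II and -0.0300 for complex III. With spike-in scaling they were 0.130 for the 38 genes, 0.134, 0.221, 0.00723 and 0.141 for complexes I to IV, 0.0803 for the citrate cycle and 0.226 for the regulators, whose median was 0.20 when dim genes were left out, since Ppargc1a was then left out. Without 1 array the median of complex I ran from -0.0610 to 0.0962 and that of complex III from -0.212 to -0.00258. The cause of these moves was not tested.

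Replicate numbers gave no sign of pairing: deviations of arrays with the same number correlated at -0.154 over all genes. The replicate block gave 4323 genes called and 3 of the 38 genes lower: Idh3a and Idh3b kept their calls, those of Mdh2 and Sco2 ended, and Ndufv1 was called (-0.34), and the labels give no shared origin for a number. With the numbers crossed, 3954 genes and 1 of the 38 genes lower were called. No called change of the 38 genes or of the pathway genes named turned its sign in a fit with 1 value per gene; among single probe sets, those of Idh3a had both signs.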
